A study of Mus musculus with 6 samples.

Results

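The Isl and Lhx genes encode LIM homeodomain transcription factors. In the ventral midbrain of Pitx3-/- mouse embryos 10 of them were followed here: Isl1, Isl2, Lhx1, Lhx2, Lhx3, Lhx4, Lhx5, Lhx6, Lhx8 and Lhx9. They were found by gene symbol in the array's annotation and are represented by 14 of 31769 gene probes, or 10 of 17865 genes with a symbol. The mutant samples were 3 pools of Pitx3-/- ventral midbrain at E14.5, each joining 3 midbrains. The reference was a single RNA from 10 Pitx3+/+ ventral midbrains of that age, and it shared all 6 arrays with the mutant RNA. Every pool was run on 2 arrays, once in each dye. The labels give neither the kind of Pitx3 mutation nor strain or sex. As the tissue was bulk and pooled, fewer cells of a type and less RNA per cell cannot be told apart, and embryos of a pool cannot be seen singly.

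LIM homeodomain proteins carry a pair of zinc-binding LIM domains and a homeodomain. The LIM domains bind cofactors of the Ldb family, and combinations of LIM homeodomain factors assign identities to neurons of the spinal cord and brain. Isl1, Isl2, Lhx3 and Lhx4 are known from motor neurons, with Lhx3 and Lhx4 also needed in the pituitary, and Isl1 also marks the oculomotor nucleus of the midbrain and neurons of the hypothalamus. Lhx2 and Lhx9 are close relatives with roles in the thalamus, and Lhx1 and Lhx5 are another related pair, known from interneurons. Lhx6 and Lhx8 act in neurons that arise in the ventral telencephalon. Pitx3 itself is a homeodomain factor of midbrain dopaminergic neurons.

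Signals ranged widely between the member probes. A spot counted as above background where its signal lay more than 2 SDs of the local background over that background's mean. From 46.1% to 51.7% of gene probes passed in the mutant channel of an array, and from 47.5% to 54.6% in the reference channel. Of the 14 member probes, 7 were above background in at least 1 channel on all 6 arrays: those of Isl1, Lhx1, Lhx2 and Lhx5, the brightest probe of Lhx6 and the brighter 2 of Lhx9. By the same rule 13882 of all 31769 gene probes were above background. The Lhx8 probe passed on 5 arrays in the mutant and on 5 in the reference, and the Isl2 probe on 1 in each. The other 5 probes, both of Lhx3, the one of Lhx4 and the dimmest of Lhx6 and Lhx9, passed on no array in either channel. The Pitx3 probe had ratios of 0.04, 0.01 and 0.03 in pools 1, 2 and 3 and was above background on no array, so it does not check the genotype. Th, Slc18a2 and Foxa2, genes of dopaminergic neurons and their progenitors, were above background in both channels on all 6 arrays.

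All ratios below are log2 of mutant over reference, each pool's being the mean of its 2 arrays, and a negative value means a lower signal in the mutant. With the pool as the replicate (n = 3), limma tested each mean ratio against 0, with Benjamini-Hochberg adjustment over all 31769 probes. None of the 14 member probes passed an adjusted p under 0.05, and the background was 0%, as no probe of the array passed. The single reference RNA leaves the spread between wild-type samples unmeasured. At an unadjusted p under 0.05 there were 4 member probes on the lower side, namely Isl1, Lhx2 and 2 probes of Lhx9, where the background was 2.41%. On the higher side there was 1, Lhx5, against a background of 2.46%. Both directions together gave 5 of 14, against 4.87%. The members were chosen with earlier results of these data known. They share tissue and reference, and 2 of the lower probes belong to the same gene.

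**Figure D1:**
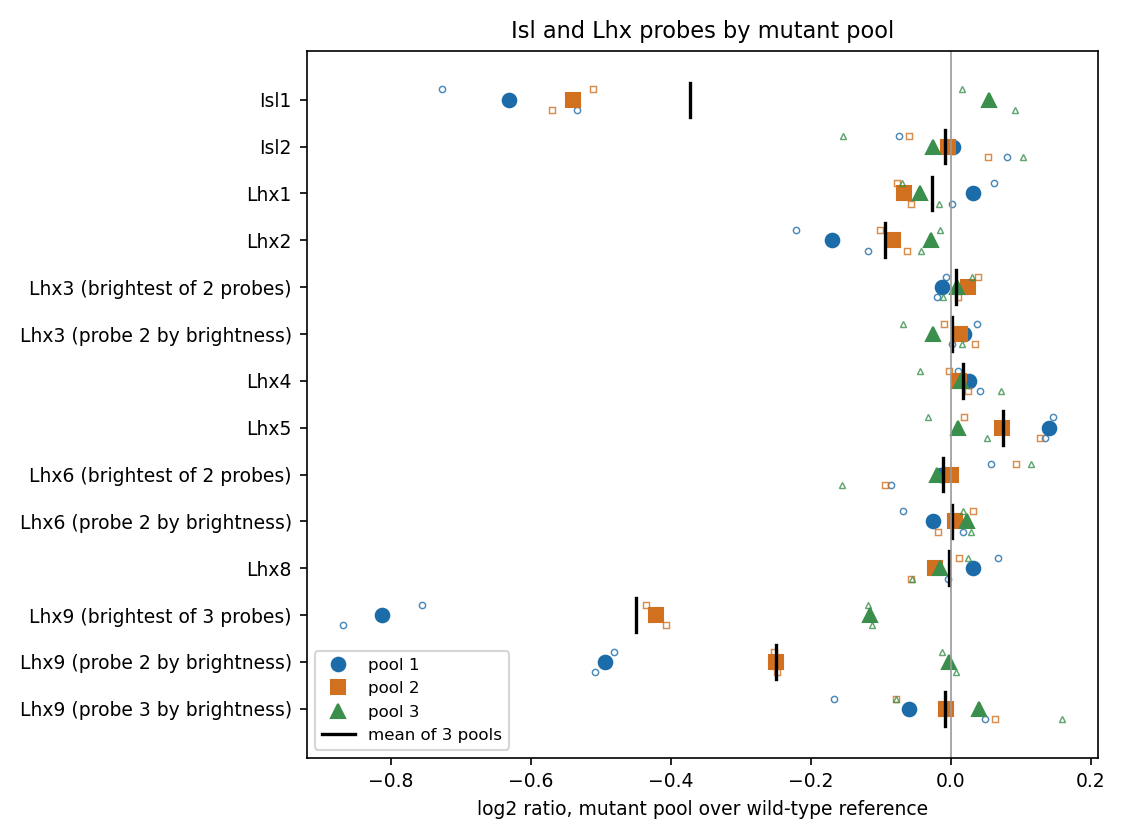
The plot of ratios by pool shows the 14 probes of the 10 genes from top to bottom, with the log2 ratio of mutant over reference on the horizontal axis. Large symbols are pools (mean of 2 arrays), small open symbols are the single arrays (mutant in Cy5 above, mutant in Cy3 below), and black bars are means of 3 pools. Isl1 and the brighter 2 probes of Lhx9 spread over 0.68, 0.70 and 0.49 between pools, while the other probes lie near 0.

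Isl1 was low in pools 1 and 2 and near the reference in pool 3. Its ratios were -0.63, -0.54 and 0.05 in pools 1, 2 and 3, which is 0.65, 0.69 and 1.04 times the reference. The single arrays of a pool stood together: -0.73 and -0.53 in pool 1, -0.51 and -0.57 in pool 2, and 0.02 and 0.09 in pool 3, each with the mutant in Cy5 first. The 4 arrays of pools 1 and 2 thus did not overlap with the 2 of pool 3. The mean was -0.37 ± 0.37 (SD, n = 3), with a 95% interval of -0.74 to -0.01 and a limma adjusted p of 0.91.

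Before normalization, the scanner values gave the following. With the mutant in Cy3, the Isl1 spot stood 12.7, 12.2 and 41.1 intensity units above its local background in the mutant channel of the arrays of pools 1, 2 and 3. The reference, in Cy5 on those arrays, stood at 89.3, 82.2 and 88.7. On these 3 arrays the reference signal was steady and the mutant signal of pool 3 was the high value. With the mutant in Cy5, the mutant signals were 30.0, 20.1 and 57.1, against 48.3, 31.1 and 24.2 for the reference in Cy3. There both channels differed between the arrays, and the array of pool 3 had the lowest reference signal. Within Cy5 the mutant and reference values did not overlap, and within Cy3 they did. The share of all probes without overlap within a dye was not counted. Values within a dye come from different, unnormalised arrays, so array brightness is part of such a gap. In pool 3 the mutant in Cy5 lay below every Cy5 reference value, although both array ratios of that pool were near 0 (0.02 and 0.09).

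**Figure D2:**
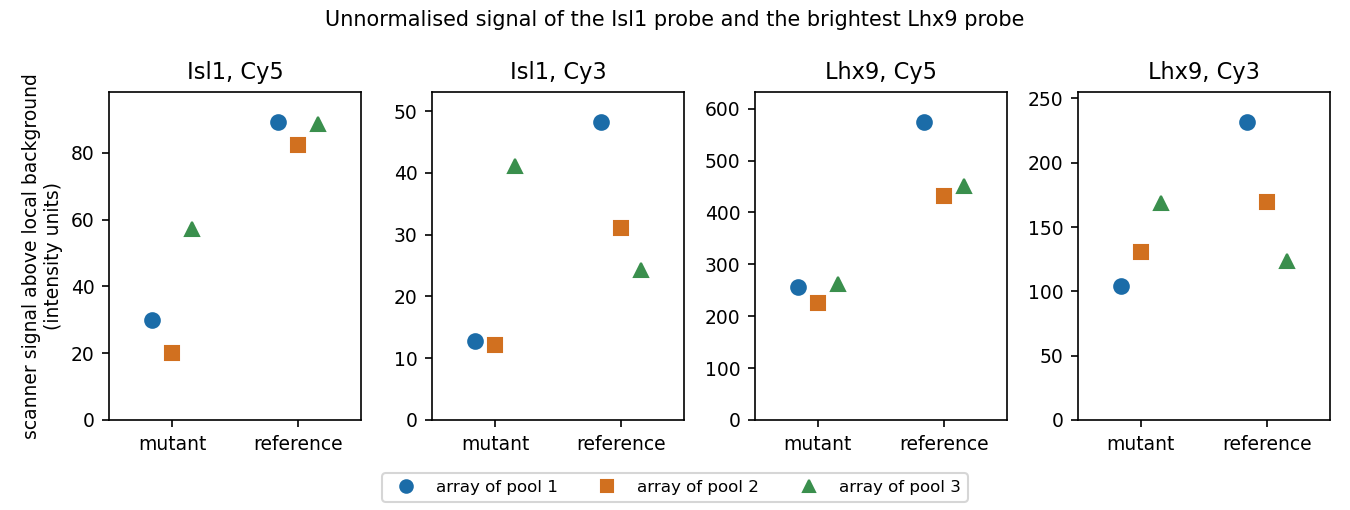
The plot of raw signal gives, for the Isl1 probe and the brightest Lhx9 probe, the scanner signal above local background in intensity units, with mutant left and reference right and a panel for each dye. Each symbol is 1 array. The reference values in a panel come from the arrays on which the mutant carried the other dye, so the same symbol on the left and on the right is not the same array. For both genes all mutant values in Cy5 lie below all reference values in Cy5, and in Cy3 the values overlap. As these are different, unnormalised arrays, array brightness is part of such gaps. The Lhx2 probe, not shown, had no overlap in Cy5 either.

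Lhx9 had ratios that were graded over the pools, lowest in pool 1. The brightest of its 3 probes had ratios of -0.81, -0.42 and -0.12 in pools 1, 2 and 3, or 0.57, 0.75 and 0.92 times the reference, and it was below 0 on all 6 arrays. The next probe had -0.49, -0.25 and -0.00203, so it gave the same order of pools at smaller values, with pool 3 at the reference level. Their means were -0.45 ± 0.35 and -0.25 ± 0.25 (SD, n = 3), with 95% intervals of -0.79 to -0.11 and -0.49 to -0.01 and a limma adjusted p of 0.91 for both. The dimmest probe, never above background, stood at -0.06, -0.01 and 0.04. The sources used here do not say which part of the Lhx9 transcripts each probe matches.

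On the scanner scale, the brightest Lhx9 spot stood 256, 225 and 261 units above background in the mutant in Cy5 for pools 1, 2 and 3. The reference in Cy5, on the dye-swapped arrays, stood at 575, 432 and 450, so mutant and reference did not overlap within this dye. Here too the values come from different, unnormalised arrays. In Cy3 the mutant signals were 105, 131 and 169 and the reference signals 232, 170 and 123. In that dye the ranges overlapped, and the array of pool 3 had the lowest reference signal, as it had for Isl1.

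Isl1 and Lhx9 are the members that the results turn on, and the 250 bases before their annotated starts are shown for that reason, 5′ to 3′ on the strand of each gene, from RefSeq on GRCm38.p6. Capitals mark a match to TAATCC or TAATTA, on either strand. TAATCC is the core site known for bicoid-class homeodomains, to which Pitx3 belongs, and TAATTA is a core that many other homeodomains bind. The end of one match can overlap the start of the other motif.
Isl1, chr13:116309689-116309938, minus strand: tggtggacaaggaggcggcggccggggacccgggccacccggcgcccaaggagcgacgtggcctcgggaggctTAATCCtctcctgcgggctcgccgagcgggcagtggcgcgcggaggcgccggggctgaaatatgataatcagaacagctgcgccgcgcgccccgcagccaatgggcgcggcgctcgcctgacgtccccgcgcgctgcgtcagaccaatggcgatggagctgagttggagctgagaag
Lhx9, chr1:138842445-138842694, minus strand: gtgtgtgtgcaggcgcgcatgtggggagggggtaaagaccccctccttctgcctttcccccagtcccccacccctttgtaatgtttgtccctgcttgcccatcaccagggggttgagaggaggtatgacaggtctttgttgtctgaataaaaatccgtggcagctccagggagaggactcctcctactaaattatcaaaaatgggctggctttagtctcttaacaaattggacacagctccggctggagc

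The Isl1 window held 1 TAATCC, whose first base lies 177 bases before the start, and the Lhx9 window held neither motif. Among all 32851 windows of this length in the table, 6.25% held TAATCC on either strand and 4.84% held TAATTA. The table had 13 windows for 9 of the 10 members (none for Lhx5), and the one of Isl1 was the only one with TAATCC, while 0 held TAATTA. The Isl1 window was 71.2% G and C, and the Lhx9 window 53.6%, against a median of 52.4% over all windows. A match says only that the letters are present.

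Lhx2, the close relative of Lhx9, had smaller ratios in the same order of pools. They were -0.17, -0.08 and -0.03 in pools 1, 2 and 3 and below 0 on all 6 arrays. The mean was -0.09 ± 0.07 (SD, n = 3), 0.94 times the reference, with a 95% interval of -0.17 to -0.02 and a limma adjusted p of 0.91. The probe was above background on 3 of 6 arrays in the mutant and on 6 of 6 in the reference. Its signal stood between 1.94 and 2.77 background SDs in the mutant and between 2.22 and 3.91 in the reference, so it was measured near the limit.

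Of the related pair Lhx5 and Lhx1, Lhx5 lay above 0 in all 3 pools and Lhx1 did not. Lhx5 had ratios of 0.14, 0.07 and 0.01 in pools 1, 2 and 3, with a mean of 0.07 ± 0.07 (SD, n = 3), a 95% interval of 0.0045 to 0.15 and a limma adjusted p of 0.91. Its order of pools was the mirror image of that of Lhx9, pool 1 being farthest from 0 and pool 3 nearest. With median centring in place of loess its mean was 0.00435. Lhx1 stood at 0.03, -0.07 and -0.04, on both sides of 0, with a mean of -0.03 ± 0.05 and a 95% interval of -0.08 to 0.03. In pools 2 and 3 it was near Lhx2 (-0.08 and -0.03), and no test compared these genes.

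The telencephalic pair Lhx6 and Lhx8 stood near 0 in all pools. The brightest Lhx6 probe, between 23.2 and 39.8 background SDs in the mutant and between 24.1 and 39.8 in the reference, had -0.01, 0.00014 and -0.02 in pools 1, 2 and 3. Its mean was -0.01 ± 0.01 (SD, n = 3), with a 95% interval of -0.04 to 0.02, so a mean shift as large as that of Isl1 or Lhx9 lies outside this interval. Its 2 dyes disagreed, however. Arrays carrying the mutant in Cy5 averaged 0.09, and the fitted dye term was 0.10, which the mean over both orientations removes. The other Lhx6 probe was above background on no array, so the interval rests on the brightest probe alone. Lhx8, near the background limit, had 0.03, -0.02 and -0.02, with a 95% interval of -0.04 to 0.04.

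The motor neuron and pituitary genes gave little information. Isl2 had ratios between -0.03 and 0.0037 in the 3 pools, the 2 Lhx3 probes between -0.03 and 0.02, and Lhx4 between 0.01 and 0.03. Since their spots were at or below the background limit, values near 0 here do not show equal transcript levels.

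The second question was whether the pools differed by more than the arrays of 1 pool do. A limma fit to the 6 arrays with a mean for each pool and a dye term was used, whose residual is the disagreement between dye-swapped arrays. It is no test of the genotype. By its F test, 3 of 14 member probes differed between pools, namely Isl1 and the brighter 2 probes of Lhx9, where the background was 4.4% of all probes and 9.98% of those above background. The limma adjusted p was 0.000354 for Isl1 and 0.00018 and 0.000253 for Lhx9. Lhx2 and Lhx5 did not pass (0.15 and 0.20), nor did the other probes.

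For Isl1, pool 1 stood 0.68 below pool 3 and pool 2 stood 0.59 below pool 3, both with an SE of 0.05, while pools 1 and 2 differed by -0.09 (limma adjusted p = 0.88). For the brightest Lhx9 probe, pool 1 stood 0.70 below pool 3, pool 2 stood 0.31 below pool 3 and pool 1 stood 0.39 below pool 2, each with an SE of 0.04. The differences from pool 3 passed for Isl1 and for both Lhx9 probes, against backgrounds of 5.38% for pool 1 and 2.66% for pool 2. In 1 direction the backgrounds were 3.25% for pool 1 below pool 3 and 1.5% for pool 2 below pool 3. The difference between pools 1 and 2 passed for both Lhx9 probes (limma adjusted p = 0.0072 and 0.021) and for no other member, against a background of 0.183%. Whether Isl1 and Lhx9 differ from each other in this was not tested. These calls were lost with 2 other ways of processing, median centring and an offset of 0, under which no probe of the array passed. Unadjusted p-values of Isl1 and the brighter 2 probes of Lhx9 then lay between 0.000719 and 0.00565.

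The spread of a probe between pools can be read against that of all probes above background. The highest minus the lowest pool ratio had a median of 0.07 over 13882 such probes, and 95% of them lay below 0.24. The spread of Isl1 (0.68) and of the brightest Lhx9 probe (0.70) was wider than that of 99.9% of them, and that of the next Lhx9 probe (0.49) wider than that of 99.7%. Lhx2 and Lhx5, at 0.14 and 0.13, were wider than 83.4% and 81.1%. Lhx6, at 0.02, was wider than 7.92%.

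**Figure D3:**
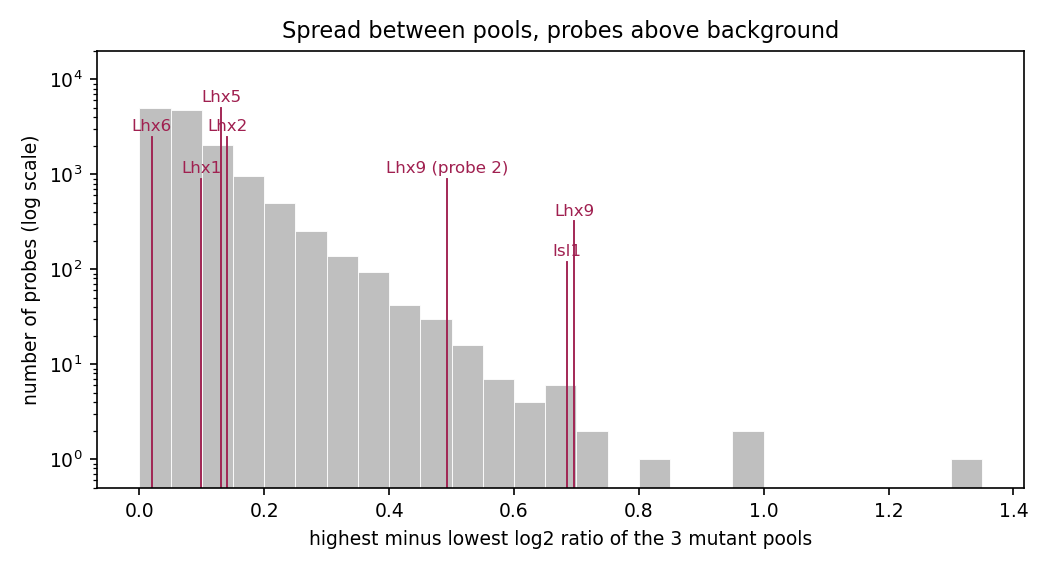
The plot of the spread between pools is a histogram of the highest minus the lowest pool ratio (log2) over 13882 probes above background, with the number of probes on a log axis. Vertical lines mark the 7 member probes in this set. Isl1 and the brightest Lhx9 probe lie far out in the right tail and Lhx6 lies near 0.

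Each pool was left out in turn, and members passed the test against the reference only without pool 3. That pool was the nearest to 0 for Isl1, Lhx2, Lhx5 and both brighter Lhx9 probes. Passing without pool 3 thus follows from dropping the values that disagreed and adds no independent evidence. Without it, on the mean of pools 1 and 2, 5 of 14 member probes passed limma's adjusted test, against a background of 4.86%, and 4 of these stood lower, against 2.85%. They were Isl1 at -0.59 (adjusted p = 0.000645), the 2 brighter probes of Lhx9 at -0.62 and -0.37 (0.015 and 0.017), Lhx2 at -0.13 (0.037) and Lhx5 at 0.11 (0.040). Without pool 1 or without pool 2 no member passed. Ratios were also reduced by the offset of 50 added to every spot. With an offset of 0 the mean of Isl1 was -0.97, that of the brightest Lhx9 probe -0.55, that of the next -0.45 and that of Lhx2 -0.43, none of them past the test.

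The genes whose 3 pool ratios were most like those of Isl1 and Lhx9 were found by Euclidean distance over the 3 pools, among 9435 other genes above background. For Isl1 they were Dlx2, Pmch, Kitl, Lhx9 and Slc22a29, at distances of 0.21, 0.22, 0.26, 0.28 and 0.32. Dlx2 is a homeobox gene of forebrain GABAergic neurons, Pmch encodes the melanin-concentrating hormone precursor of the lateral hypothalamus, and Kitl encodes the ligand of the receptor Kit. Pmch had ratios of -0.41, -0.55 and 0.05 in pools 1, 2 and 3, and Kitl -0.57, -0.30 and 0.15. For Lhx9 they were Isl1, Tcf7l2, Dlx2, Kitl and Slc22a29, at 0.28 to 0.43. Slc22a29, a solute carrier gene, stood at -0.39, -0.34 and -0.04. No gene lay within 0.1 of Isl1 or Lhx9, whereas 532 lay that near to Lhx2, 890 to Lhx5, 3569 to Lhx1 and 6709 to Lhx6. The nearest to Lhx2 were Plagl1, Hnrnph1, Zfp59, Tox and Acly, to Lhx5 Rbm42, Spsb4, Lamp5, Pnpla6 and Dennd2a, and to Lhx1 Eif6, Exoc7, 4931406C07Rik, Ddc and Rhbdf1. The nearest to Lhx6 were 4930438A08Rik, Ropn1l, Arhgap23, Nrf1 and Cdk6. With so many genes as near, these names single out little.

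Some genes known from neighbouring brain regions had pool ratios in the order of Isl1 or Lhx9. The lists from here on were chosen with earlier results of these data known. Their counts beside a background are therefore no independent evidence. In a list of 16 hypothalamic and prethalamic genes, 14 were measured and 9 of these were above background. None passed over all probes, 2 stood lower at an unadjusted p under 0.05 (Dlx1 and Dlx2) and 12 did not pass, where the background over genes was 3.02% lower and 2.86% higher, for this list and those that follow. Dlx1 had ratios of -0.90, -0.94 and 0.05 and Dlx2 of -0.46, -0.42 and 0.02 in pools 1, 2 and 3, low in the first pools and at the reference in the last, as for Isl1. By the F test 4 of 14 differed between pools, namely Dlx1, Dlx2, Dlx5 and Sst, where the background over genes was 5.18%, again for all lists. Dlx5 had -0.18, -0.12 and 0.03, while Sst, the somatostatin gene, lay above 0 with 0.24, 0.10 and 0.0025. The medians of the list were -0.01, -0.02 and 0.0031 in the 3 pools. Rax, Otp, Foxb1 and Six6 were above background on no array, while Nkx2-1 and Six3 were above it in both channels on all 6. Nkx2-1 had ratios of -0.01, -0.06 and -0.03 and Six3 of -0.07, -0.0014 and -0.04, all small beside those of Isl1 in pools 1 and 2. The summed signal of the list above background lay between 1748 and 2331 in the mutant in Cy5 and between 2023 and 2461 in the reference in Cy5, and in Cy3 between 877 and 1107 in the mutant and between 890 and 1226 in the reference.

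Of 6 thalamic genes, all measured, Tcf7l2 stood lower at an unadjusted p under 0.05 and 5 did not pass. Tcf7l2, a nuclear effector of Wnt signalling that is abundant in the thalamus, had -0.49, -0.23 and -0.15 in its brightest probe, the graded order of Lhx9. Its 8 probes disagreed, with means between -0.31 and 0.0034. Rora, a nuclear receptor gene, had -0.02, 0.09 and -0.05 in its brightest probe and -0.46, -0.38 and 0.03 in another. Gbx2, a homeobox gene of the thalamus and the isthmus, had -0.25, -0.08 and 0.07, also in the order of Lhx9. Tcf7l2 and Gbx2 differed between pools by the F test (limma adjusted p = 0.001 and 0.0021). The list's medians were -0.05, -0.02 and -0.02, and its summed signal was between 856 and 1300 in the mutant in Cy5 and between 1206 and 1585 in the reference in Cy5, and in Cy3 between 408 and 570 in the mutant and between 467 and 674 in the reference. Of 7 measured telencephalic genes 5 were above background on no array, and Meis2, which other brain regions express too, stood at -0.33, -0.28 and 0.06, and Ebf1 between -0.05 and 0.05. The summed signal of these 7 genes lay between 124 and 169 in the mutant in Cy5 and between 178 and 230 in the reference in Cy5, where they did not overlap. In Cy3 it lay between 74.6 and 81.1 in the mutant and between 59.4 and 102 in the reference, where they did. Of the other lists, only the dopaminergic one had no overlap in Cy5. Its summed signal lay between 605 and 940 in the mutant and between 1124 and 1323 in the reference. Such sums were not normalised for any list, and within a dye mutant and reference come from different arrays. Whether the amount of tissue from neighbouring regions has a part in the ratios of Isl1 and Lhx9 was not tested.

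Isl1 is also known from motor neurons. Of 8 measured motor and cholinergic genes, 3 stood higher at an unadjusted p under 0.05, 0 lower, and 5 did not pass, where the background over genes was 2.86% higher and 3.02% lower. By the F test Nkx6-2 differed between pools. Nkx6-2 had 0.43, 0.42 and 0.01 in its brightest probe, Nkx6-1 had 0.17, 0.16 and 0.04, and Prph had 0.04, 0.07 and 0.05 in pools 1, 2 and 3. The single arrays of that Nkx6-2 probe disagreed, with 0.08 and 0.78 in pool 1 (mutant in Cy5 first), and its other probe had 0.11, 0.04 and 0.01. Nkx6-1 and Nkx6-2 are homeobox genes of ventral progenitors and Prph encodes peripherin, a filament protein of motor neurons. Chat and Phox2a, the markers that define cholinergic and oculomotor neurons, were above background on no array. Slc5a7, the choline transporter gene, was above it on all 6 in both channels, at -0.0098, -0.0037 and -0.01. The summed signal of these 8 genes lay between 294 and 411 in the mutant in Cy5 and between 286 and 324 in the reference in Cy5, and in Cy3 between 134 and 187 in the mutant and between 139 and 180 in the reference.

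Among 8 measured red nucleus and glutamatergic genes, Slc17a6, a vesicular glutamate transporter, stood lower at -0.21, -0.19 and -0.05, and 7 did not pass. The single arrays of Slc17a6 disagreed by dye, with -0.51 and 0.08 in pool 1 and -0.17 and 0.07 in pool 3 (mutant in Cy5 first). Barhl1, a homeobox gene, had 0.20, 0.03 and -0.15, so pool 1 was its highest where it was the lowest of Lhx9. Pou4f3 had -0.02, -0.00058 and -0.02. Of 9 measured GABAergic genes, Slc32a1, the vesicular GABA transporter, stood higher at 0.25, 0.25 and 0.14, and 8 did not pass. By the F test 4 of 9 differed between pools, namely Tal1, Gata2, Gata3 and Gad1, against 5.18% of all genes. Tal1 and Gata2, which specify midbrain GABAergic neurons, had 0.33, 0.42 and -0.07 and 0.19, 0.31 and -0.04, so in pools 1 and 2 they lay above 0 where Isl1 lay below it. Gad1, which encodes an enzyme of GABA synthesis, ran in another order, with -0.05, 0.09 and 0.12. Gata3, a relative of Gata2, had 0.13, 0.25 and -0.02. Of the 6 pituitary and 8 hindbrain and spinal cord genes measured, none passed either test. Their pool ratios lay between -0.03 and 0.05 for the pituitary genes, Cga and Gh among them, and between -0.06 and 0.04 for the others, among them Egr2, Hoxa3 and Hoxb4.

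None of the family's partners passed the adjusted test. Of 10 LIM cofactor and LIM-only genes, all measured and 8 above background, Ssbp4 stood higher at an unadjusted p under 0.05 and 9 did not pass. Ssbp4, which encodes a protein that binds the Ldb cofactors, had 0.06, 0.05 and 0.03 in pools 1, 2 and 3. By the F test Lmo1 and Ldb1 differed between pools (limma adjusted p = 0.035 and 0.0056). Lmo1, a LIM-only gene, had -0.17, -0.16 and 0.02, the order of Isl1 at smaller size. Ldb1, the cofactor shared by LIM homeodomain proteins, had 0.09, 0.11 and -0.13 in its brightest probe, while a second probe lay between -0.05 and 0.03. Ldb2 did not pass in its brightest probe, which had -0.07, 0.0074 and -0.0094. Its other probe had -0.21, -0.12 and 0.0088 and passed the F test (limma adjusted p = 0.025). Lmo4 lay between 0.02 and 0.03. The list's medians were -0.02, 0.0027 and -0.01. Of the other LIM homeobox genes, Lmx1a, a gene of dopaminergic progenitors, stood at 0.07, 0.01 and 0.02, and Lmx1b was above background on no array.

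Pitx3 itself is known from dopaminergic neurons. Of 9 dopaminergic genes measured, 5 stood lower and 1 higher at an unadjusted p under 0.05, and 3 did not pass, where the background over genes was 3.02% lower and 2.86% higher. By the F test Th and Foxa2 differed between pools. Slc18a2, the vesicular monoamine transporter, had -0.38, -0.38 and -0.32 in pools 1, 2 and 3, so it was low in pool 3 as well, where Isl1 was at the reference level. Aldh1a1, which makes retinoic acid, had -0.13, -0.20 and -0.20. It was above background on 6 arrays in the reference and on 0 in the mutant, which leaves a bound, at least 1.08-fold lower in the mutant, taken with the mutant spot raised to the lowest signal well above background on each array. Th had 0.02, -0.22 and -0.23, with pool 1 the high one, and Foxa2 had 0.13, 0.34 and 0.07. The other lower genes were Nr4a2, a nuclear receptor gene of dopaminergic neurons, at -0.09, -0.06 and -0.23, and Slc6a3, the dopamine transporter gene, at -0.11, -0.14 and -0.11. Slc6a3 was above background on 0 arrays in the mutant and on 2 of 6 in the reference. With the reference itself mostly undetected, its ratios give neither the size of a change nor a bound on it.

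**Figure D4:**
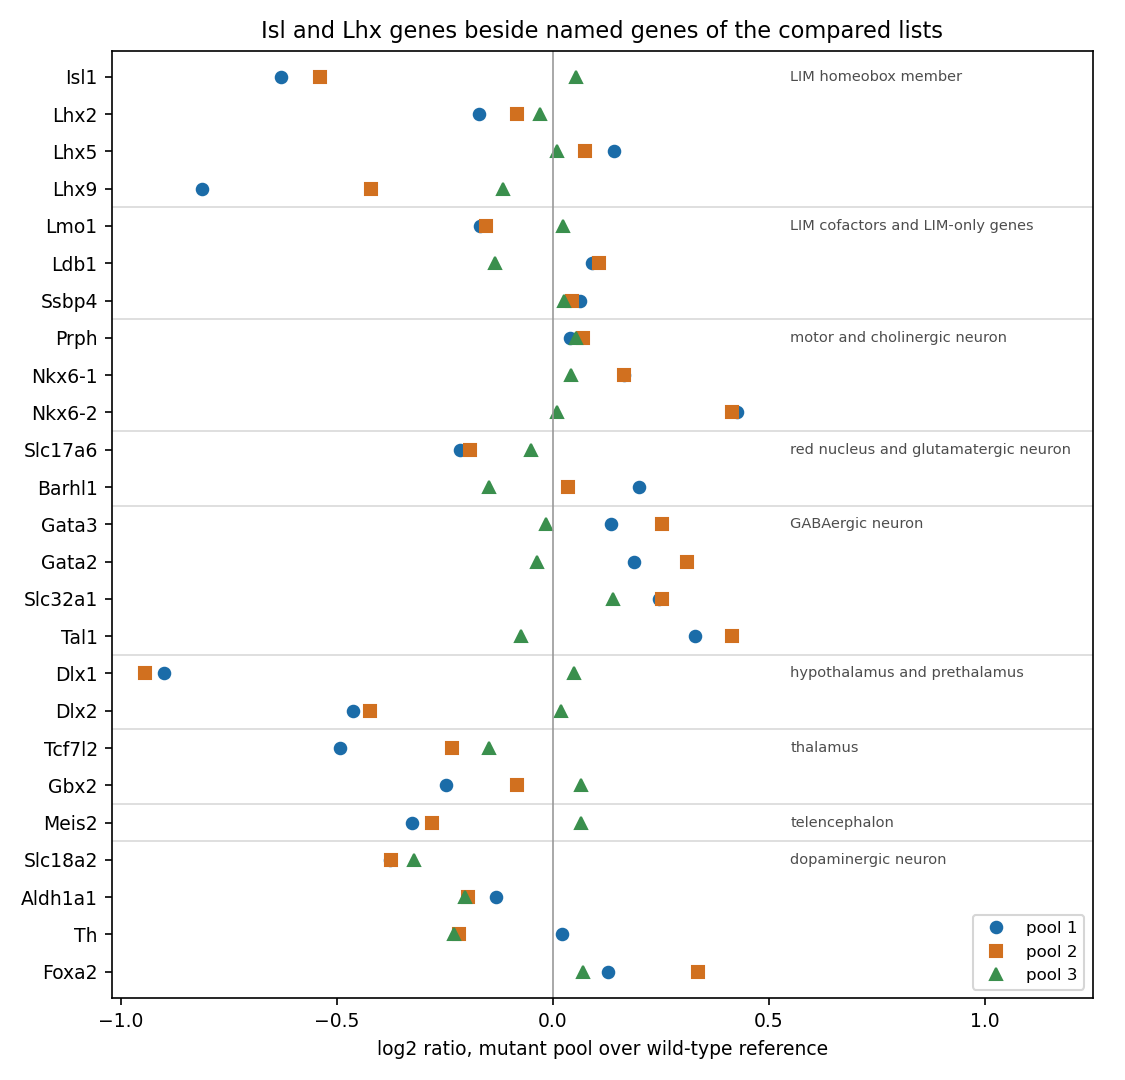
The plot of listed genes shows the pool ratios (log2, mutant over reference) of Isl1, Lhx2, Lhx5 and Lhx9 at the top and below them those named genes of each compared list that passed the unadjusted or the F test, 1 symbol per pool. Isl1, Dlx1, Dlx2 and Meis2 lie low in pools 1 and 2 and near 0 in pool 3, whereas Slc18a2 lies between -0.38 and -0.32 in all 3 pools.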

How the data were processed

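Computation started from the deposited scanner intensities of each spot and its local background. Per the labels' protocol file, slides were scanned on an Agilent scanner and spots extracted with ImaGene, and the authors' derived intensities and log2 ratios came from print-tip loess without background subtraction. The sources used here do not give versions or a genome build. Here normexp with an offset of 50 and global loess with a span of 0.3 were run in limma 3.58.1 (R 4.3.3), with 3223 control spots at weight 0. Every ratio was signed as mutant over reference, a pool's value was the mean of its 2 arrays, and lmFit and eBayes gave the tests. The single reference leaves out the control's own spread, and embryos were pooled. Pool differences were tested on 6 arrays with a dye term, leaving 2 residual and 7.27 prior degrees of freedom.

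Gene symbols came from the platform table, updated through RefSeq (GRCm38.p6). Where a gene had several probes, the one with the highest mean intensity stood for it. Members and lists were chosen with earlier results of these data known. Of each list, the text names the members past the test, or else the 2 with the lowest p, and the 2 with the widest spread between pools, among genes above background. For members above background it names the 5 genes nearest over the 3 pool ratios. Dlx5, Sst, Rora, Gad1, Slc5a7, Nr4a2, Slc6a3, Nkx2-1, Six3, Ldb2 and the dim markers were named after their values were seen. Both fits were tested on simulated data.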

Additional observations from a re-analysis of the deposited data

How the results depend on the processing

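The mean ratios of Isl1, Lhx2, Lhx5 and both brighter Lhx9 probes kept their sign under every alternative run. The count of member probes past limma's adjusted test against the reference stayed at 0 with an offset of 0, no background subtraction, median centring, the authors' derived ratios, only probes above background, an intensity trend, the pool as a random block, and each dye orientation alone, with 14 member probes tested except under the filter, which left 7. At an unadjusted p under 0.05 there were 3 member probes with an offset of 0 (1735 of 31769 probes), 6 with median centring (4943), 2 under the filter (742 of 13882), and 7 and 8 with the mutant in Cy5 and in Cy3 alone (7172 and 6994). There were 3 with the derived ratios (1576), 5 with no background subtraction (1655) and 5 with the trend (1605). Under the trend 11 of 31769 probes passed the adjusted test. Without pool 3, 5 member probes passed the adjusted test, against 4.86% of all probes, and without pool 1 or pool 2 the count was 0. The count of 3 member probes that differed between pools was 0 with an offset of 0 and 0 with median centring (0 of 31769 probes in both, with 2277 and 1487 at an unadjusted p under 0.05), and the cause was not tested. It stayed at 3 with the other 4 alternatives, the filter on dim probes among them. The files used here name no slide or scan batch, so that alternative was not run. No paired analysis was possible because there is 1 group of pools and 1 reference.

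Signs turned for members near 0. Isl2 stood at 0.1141 with an offset of 0, at 0.03637 with median centring and at 0.07921 where the mutant carried Cy3. Lhx8 stood at 0.02862 with median centring, 0.008778 with the authors' derived ratios and 0.03503 with the mutant in Cy5. Lhx3 stood at -0.005281 with the derived ratios and -0.006609 with the mutant in Cy3, and Lhx4 at -0.01192 with the mutant in Cy5. Lhx6 stood at 0.08887 with the mutant in Cy5 and at 0.001726 in its second probe. Of other genes, Barhl1 stood at -0.02894, Ldb1 at -0.06886 and Lmx1a at -0.008271 with median centring. With the mutant in Cy3, Barhl1 stood at -0.02699, Ldb1 at -0.0837 and Slc17a6 at 0.02239, and with the mutant in Cy5 Ssbp4 stood at -0.03715. The second probes of Ldb1 and Ssbp4 stood at -0.01277 and -0.01387. Leaving out a pool in turn, Barhl1 ranged between -0.05624 and 0.1174, Ldb1 ranged between -0.02128 and 0.0989, Lhx8 ranged between -0.01858 and 0.008487, Lhx3 ranged between -0.001514 and 0.01702, Isl2 ranged between -0.01408 and 0.0003122.

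Low signal limits all but the brightest members, and 3 pools and 1 reference limit the rest.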
